A study of Mus musculus with 21 samples.

Results

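The subject is HIF1 and 9 genes of the hypoxia response outside glycolysis, followed in mouse CD8+ T cells after 48 h in 3 culture media. The 10 genes are *Hif1a*, the oxygen sensor genes *Egln1* and *Egln3*, and the hypoxia targets *Bnip3*, *Mgarp*, *Higd1a*, *Ak4*, *P4ha1*, *Ankrd37* and *Vegfa*. They were chosen by gene symbol from the array's annotation, 10 of 19505 genes measured, with earlier results of these data known. For a symbol with several transcript clusters (the array's gene-level probe sets) the one with the highest mean level over all 21 arrays would have been taken, but each of the 10 genes had 1, so no measured value entered the choice of a cluster. All T cells came from spleens of wildtype mice and were activated with beads against CD3 and CD28, and CD8+ cells were isolated again after the culture. The first group grew in medium conditioned by WEHI-3B cells, a single mouse myelomonocytic leukaemia line that stands for acute myeloid leukaemia (AML). The second group grew in medium conditioned by dendritic cells derived from bone marrow (DC), and the third in fresh medium. The conditioned media were filtered culture supernatants, and each group had 7 arrays, numbered as biological replicates 1 to 7.

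HIF1 is a transcription factor made of an oxygen-regulated alpha subunit, encoded by *Hif1a*, and a constitutive beta subunit, encoded by *Arnt*. When oxygen is plentiful, the prolyl hydroxylases encoded by the *Egln* genes mark the alpha subunit for recognition by VHL and degradation, so that its activity is set largely at the protein level. When the protein is stable it binds short hypoxia response elements and raises transcription of its targets, the *Egln* feedback genes among them, and in T cells activation through the antigen receptor and mTOR also increases it.

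The arrays carried the markers of the labelled cell type. The 3 CD8 T cell markers *Cd3e*, *Cd8a* and *Cd8b1* had log2 levels of 11.59 to 11.98 in AML arrays, 11.58 to 11.99 in DC arrays and 11.54 to 11.98 in fresh-medium arrays, and 0 of 3 passed between AML-conditioned and either other medium in the limma test. Of the markers of other immune cells 0 of 3 for B cells, 0 of 5 for myeloid cells, 0 of 4 for dendritic cells and 0 of 2 for natural killer cells passed. This compares media and does not show whether such cells were present. Their single-gene levels over all arrays were 2.98 to 4.72, 3.35 to 6.12, 2.89 to 5.55 and 2.68 to 3.66. For B cells 4 markers were listed and for myeloid cells 6, and not all were measured. The description field of the labels speaks of CXCL12-abundant reticular cells, whereas the source and cell type fields speak of CD8+ T cells. The 3 reticular cell markers had single-gene levels of 2.74 to 5.55 in AML, 2.79 to 5.50 in DC and 2.67 to 5.71 in fresh-medium arrays. Their summed level was 12.80 to 13.49 in AML, 12.75 to 13.38 in DC and 12.82 to 13.63 in fresh-medium arrays, with 0 of 3 called. *Cd4*, 1 of 2 listed markers of helper T cells, was higher in AML-conditioned than in fresh medium by 0.79 (SE 0.18, adjusted p = 0.0150), at 8.56 ± 0.43 against 7.77 ± 0.31 (SD, n = 7 each). Against DC-conditioned medium it did not pass by limma, at 0.54 (adjusted p = 0.110). The other marker, *Zbtb7b*, did not pass against fresh medium, at 0.17 (adjusted p = 0.304), or against DC-conditioned medium, at 0.21 (adjusted p = 0.194). The summed level of the 2 helper T cell markers was 14.33 to 15.57 in AML, 13.92 to 14.97 in DC and 13.35 to 14.48 in fresh-medium arrays. Its part in the results on the hypoxia genes was not tested. Arrays of 1 medium correlated with each other at r = 0.984 to 0.996 over all genes, and no pair held identical values. Between AML-conditioned and fresh medium 541 genes passed, 288 of them lower and 253 higher, or 189 lower and 284 higher with each array centred on its median.

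The promoters show how the 10 genes differ in the best-known feature of HIF1 targets, the core of the hypoxia response element. The 250 bases before the most upstream start that RefSeq's promoter table lists for a gene (build GRCm38.p6) were searched for ACGTG and GCGTG on both strands, so that CACGT and CACGC on the printed strand count as well and CACGTG counts as 2 overlapping matches of ACGTG. All 10 genes had an entry. In the sequences that follow, printed 5′ to 3′ on the strand of the gene, capitals mark these motifs. *Mgarp* and *Ankrd37* are shown because all 7 AML arrays lay below every fresh-medium array, *Egln3* and *Bnip3* as an oxygen sensor and a mitochondrial target that fell, and *Hif1a* and *Vegfa* because they did not pass the test.

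Mgarp: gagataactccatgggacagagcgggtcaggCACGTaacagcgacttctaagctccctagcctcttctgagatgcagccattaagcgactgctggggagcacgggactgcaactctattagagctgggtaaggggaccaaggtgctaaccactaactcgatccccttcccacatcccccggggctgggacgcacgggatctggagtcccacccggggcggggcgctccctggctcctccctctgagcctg

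Ankrd37: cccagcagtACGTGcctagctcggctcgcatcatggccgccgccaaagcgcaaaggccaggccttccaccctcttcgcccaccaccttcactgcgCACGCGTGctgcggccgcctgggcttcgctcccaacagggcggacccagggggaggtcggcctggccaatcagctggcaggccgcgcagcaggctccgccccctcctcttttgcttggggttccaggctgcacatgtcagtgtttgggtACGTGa

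Egln3: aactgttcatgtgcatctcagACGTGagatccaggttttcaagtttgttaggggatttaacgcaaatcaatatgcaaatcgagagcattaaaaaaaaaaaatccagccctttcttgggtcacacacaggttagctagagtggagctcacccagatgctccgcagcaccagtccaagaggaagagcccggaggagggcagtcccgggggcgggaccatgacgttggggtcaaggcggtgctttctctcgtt

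Bnip3: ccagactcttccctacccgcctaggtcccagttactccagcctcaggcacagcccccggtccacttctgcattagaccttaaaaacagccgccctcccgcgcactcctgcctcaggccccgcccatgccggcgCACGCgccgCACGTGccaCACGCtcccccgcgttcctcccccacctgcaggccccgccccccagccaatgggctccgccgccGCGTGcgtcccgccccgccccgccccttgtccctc

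Hif1a: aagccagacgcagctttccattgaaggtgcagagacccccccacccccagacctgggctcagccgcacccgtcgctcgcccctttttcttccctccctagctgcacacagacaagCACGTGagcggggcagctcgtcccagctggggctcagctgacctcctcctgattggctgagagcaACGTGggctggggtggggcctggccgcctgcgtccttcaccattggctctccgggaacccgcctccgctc

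Vegfa: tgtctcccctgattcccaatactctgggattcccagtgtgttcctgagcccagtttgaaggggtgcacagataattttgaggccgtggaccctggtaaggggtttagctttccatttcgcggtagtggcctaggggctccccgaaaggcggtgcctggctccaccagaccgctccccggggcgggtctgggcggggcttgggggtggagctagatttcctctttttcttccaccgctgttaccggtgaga

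The *Mgarp* window is chr3:51396548-51396797 on the minus strand and holds 1 ACGTG motif. *Ankrd37* (chr8:45999851-46000100, minus strand) has 2 ACGTG and 2 GCGTG motifs, the nearest beginning 6 bases before the start. For *Egln3* the window is chr12:54203875-54204124 on the minus strand, with 1 ACGTG motif. *Bnip3* (chr7:138909507-138909756, minus strand) has 2 ACGTG motifs, which share the palindrome, and 3 GCGTG motifs. *Hif1a* (chr12:73907617-73907866, plus strand) has 3 ACGTG motifs, and *Vegfa* (chr17:46032378-46032627, minus strand) has none of either kind. Over the 10 genes, 7 had ACGTG, against 16.5% of 27025 genes with a window of that length, 6 had GCGTG, against 28.3%, and 9 had at least 1 of them, against 38.6%. A match describes the letters and not a bound site, and no match says only that these letters are not in this window. For *Hif1a*, *Ak4*, *Ankrd37* and *P4ha1* the annotated span of the gene in RefSeq reaches further upstream than the start used here.

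**Figure D1:**
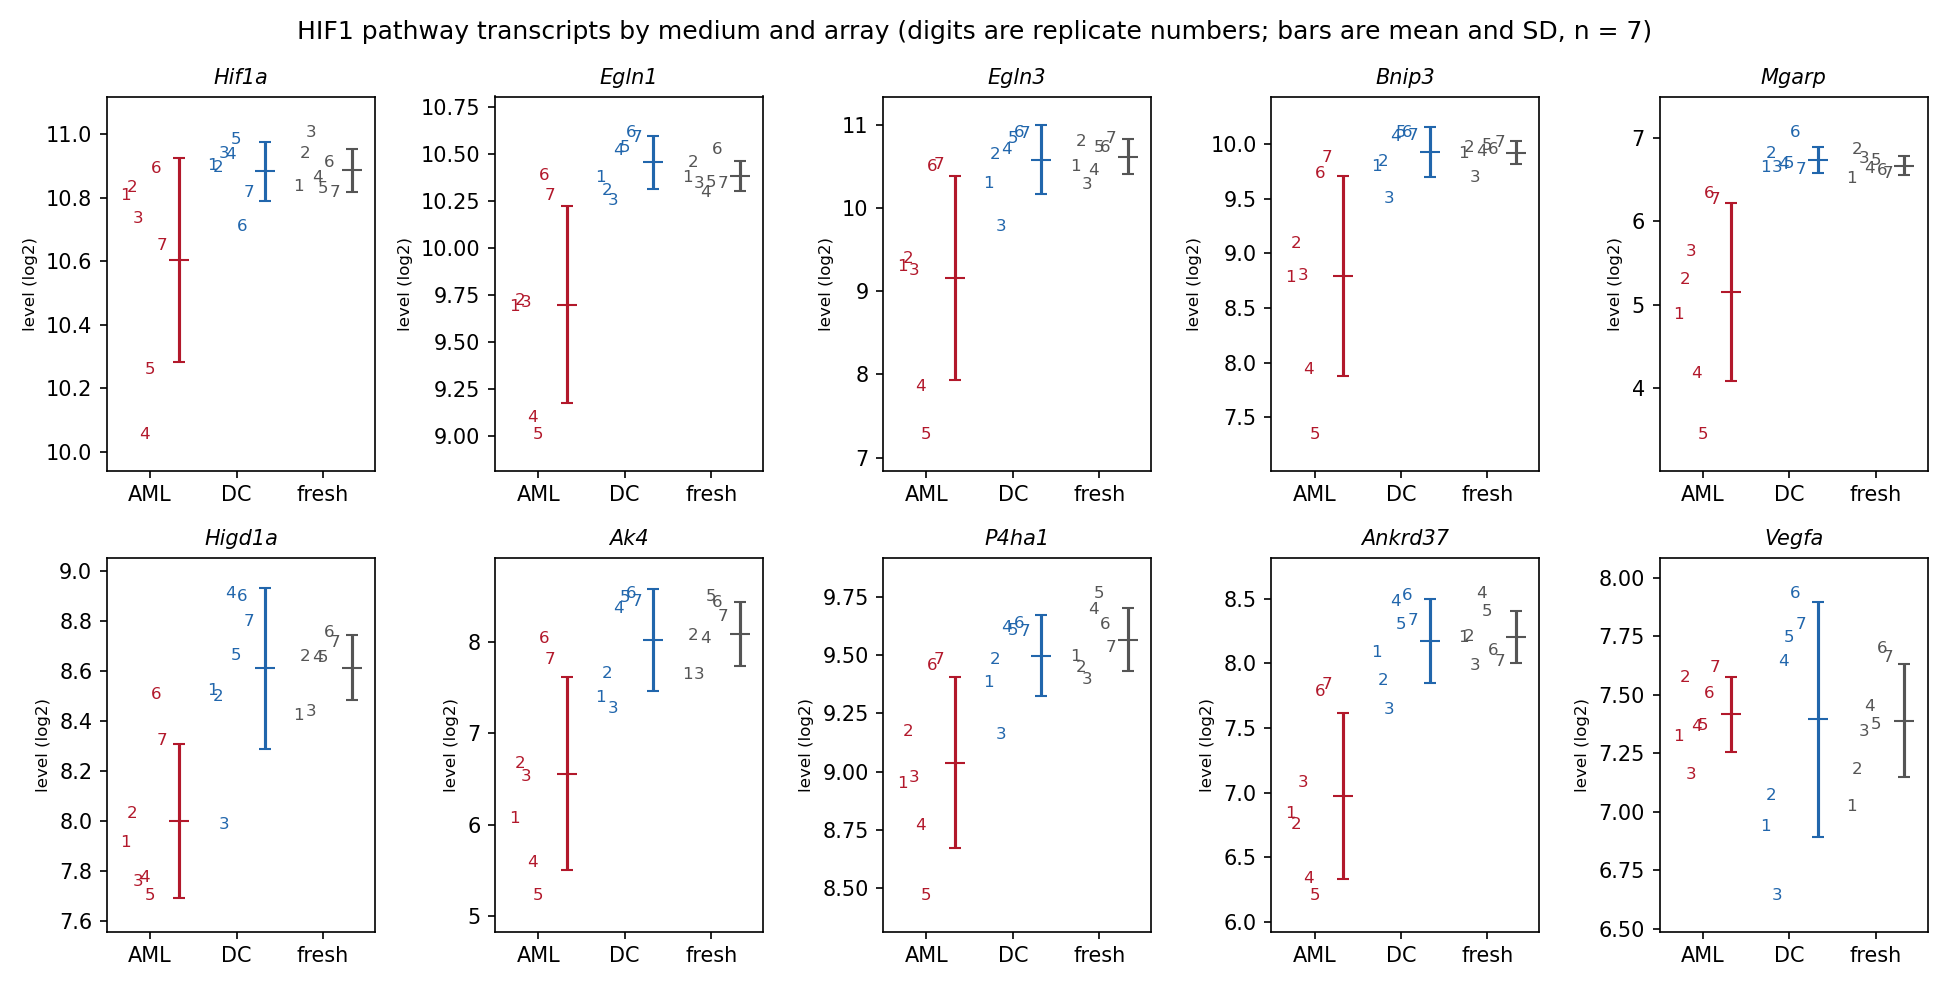
Log2 level of the 10 genes on each array, in 1 panel per gene with its own vertical scale, for AML-conditioned, DC-conditioned and fresh medium. Digits give the replicate number and stand at the measured level, and bars give the mean and SD of the 7 arrays. AML arrays 4 and 5 are the lowest in 8 panels, while AML arrays 6 and 7 lie near the other media in most, and the 3 media overlap for *Vegfa*.

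Leukaemia-conditioned medium was set against fresh medium to measure how activated CD8+ T cells differ after culture in it. What WEHI-3B cells released into the medium and what they used up cannot be told apart. Of the 10 genes 8 fell, 0 rose and 2 did not pass (limma over all genes, adjusted p under 0.05), with *Hif1a* and *Vegfa* the exceptions. Among all 19505 genes 2.77% passed, 1.48% as lower and 1.3% as higher. Because the 10 genes were chosen with earlier results of these data known, contrasts with all genes describe them and are no independent support. The median difference of the 10 genes was -0.91 on the log2 scale, against -0.01 over all genes. The falls ranged from 1.44-fold for *P4ha1* to 2.88-fold for *Ak4*. For 9 of the 10 genes at least 5 of 7 AML arrays were below every fresh-medium array, which held for 4.08% of all genes, and for 2 of them 7 of 7 were, which held for 0.441%. The AML arrays were unequal: without AML replicates 4 and 5 the direction stayed for the 8 genes but 2 passed (0.569% of all genes), *Mgarp* at -0.98 (adjusted p = 0.00844) and *Ankrd37* at -0.95 (adjusted p = 0.0136). With these 2 groups alone in the fit 4 passed (1.26% of all genes). In replicates 1 to 3 alone 6 passed by limma (1.92% of all genes), all of the 8 but *P4ha1* and *Higd1a*. In replicates 4 to 7 alone 0 passed by limma (0.164% of all genes), with 9 of the 10 genes at an unadjusted p under 0.05 (16.1% of all genes). By the exact permutation test, adjusted over all genes, 0 passed and 9 had an unadjusted p under 0.05 (14.7% of all genes). *Mgarp* and *Ankrd37* had the smallest p this test can give, 0.000583, with an adjusted p of 0.0733. Even full separation of the 2 groups thus did not pass by this test. In bulk RNA, fewer cells of a type and less RNA per cell cannot be told apart.

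**Figure D2:**
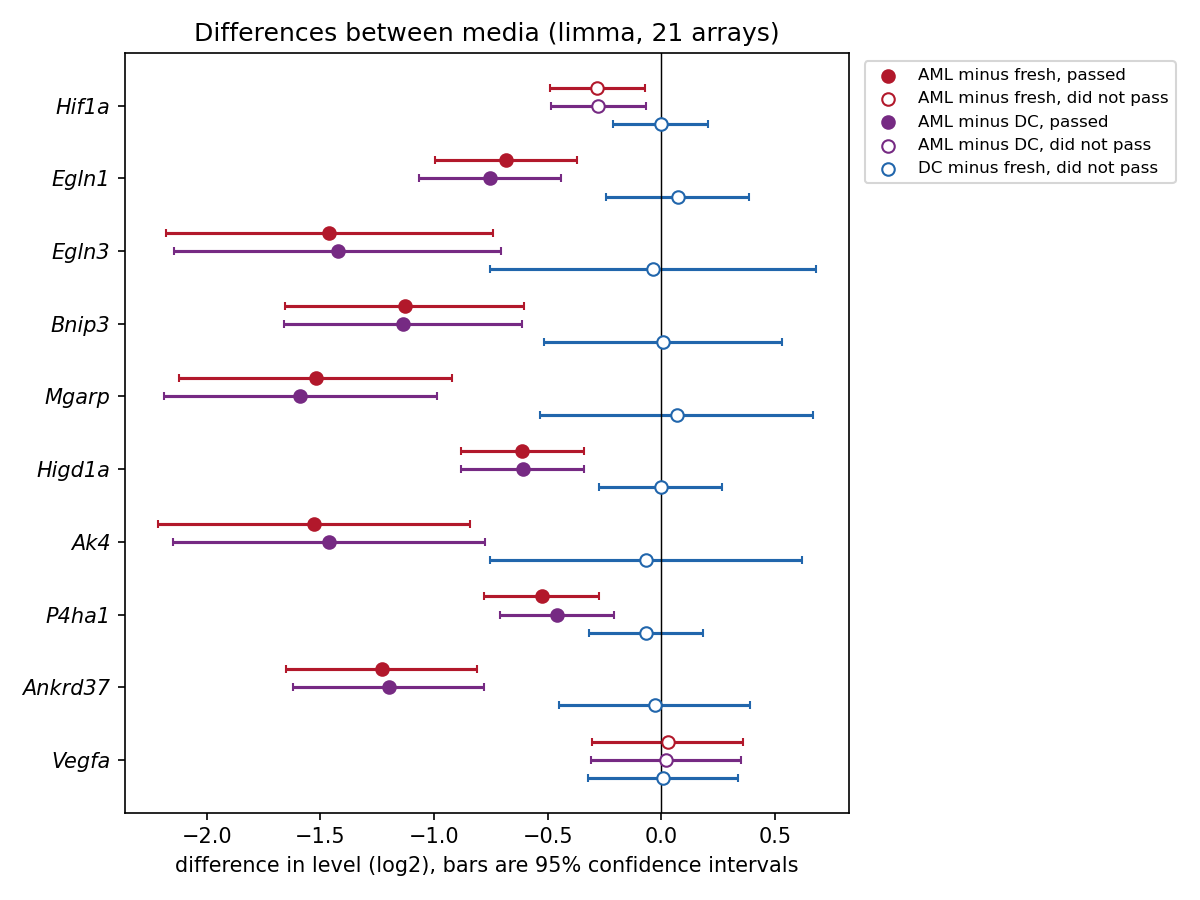
Difference in log2 level between media for the 10 genes, with 95% confidence intervals from limma. Filled points passed at an adjusted p under 0.05. The 8 filled genes lie to the left of 0 against both other media, at -1.59 to -0.46, and the intervals of DC-conditioned minus fresh medium all include 0.

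The *Hif1a* transcript, which encodes the regulated subunit itself, did not pass. It had log2 levels of 10.81, 10.83, 10.73, 10.06, 10.26, 10.89 and 10.65 in AML replicates 1 to 7, against 10.83, 10.94, 11.00, 10.86, 10.83, 10.91 and 10.82 in fresh replicates 1 to 7. AML replicates 4 and 5 stood well below all other arrays, replicates 1, 3 and 7 just below the fresh-medium range, and replicates 2 and 6 within it. The mean was 10.60 ± 0.32 in AML-conditioned and 10.89 ± 0.07 in fresh medium (SD, n = 7 each), a difference of -0.28 (SE 0.10, 95% interval -0.49 to -0.07, adjusted p = 0.142). Without AML replicates 4 and 5 the difference was -0.10 (adjusted p = 0.631). *Hif1a* was lowest on the same 2 arrays as most of the other hypoxia genes. An mRNA level does not measure the amount of HIF1 alpha protein, which was not measured here.

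Both oxygen sensor genes among the 10 fell after AML-conditioned medium. *Egln1* encodes PHD2, the main HIF prolyl hydroxylase of most cells, and *Egln3* encodes PHD3, whose transcript is strongly induced by hypoxia. *Egln1* had log2 levels of 9.01, 9.71 and 10.39 (lowest, median and highest array) in AML-conditioned medium, against 10.29, 10.35 and 10.52 in fresh medium. All AML arrays but replicate 6 were below the fresh-medium arrays, and replicate 7, at 10.28, was only just below them. The difference was -0.68 (SE 0.15, adjusted p = 0.0155), a 1.60-fold fall. *Egln3* spread far more, with 9.30, 9.39, 9.25, 7.86, 7.28, 10.50 and 10.52 in AML replicates 1 to 7, against 10.28, 10.72 and 10.83 (lowest, median and highest) in fresh medium. Replicates 1 to 3 formed a middle level, replicates 4 and 5 a low one, and replicates 6 and 7 overlapped fresh medium. *Egln3* fell by 1.46 (SE 0.35, adjusted p = 0.0234), or 2.75-fold, and no longer passed without AML replicate 4 or fresh replicate 2. Without AML replicates 4 and 5 neither gene passed, at -0.42 for *Egln1* (adjusted p = 0.0842) and -0.83 for *Egln3* (adjusted p = 0.0937).

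The 4 genes of mitochondrial proteins all fell. *Bnip3* encodes an outer membrane protein that acts as a receptor for the removal of mitochondria by autophagy. Its log2 levels were 8.78, 9.09, 8.80, 7.93, 7.34, 9.73 and 9.88 in AML replicates 1 to 7, against 9.70, 9.95 and 10.02 (lowest, median and highest) in fresh medium. Replicates 6 and 7 lay within the fresh-medium range and the other 5 below it. *Bnip3* fell by 1.13 (SE 0.25, adjusted p = 0.0168), or 2.19-fold, and the difference was -0.67 (adjusted p = 0.0528) without AML replicates 4 and 5. *Mgarp* encodes a mitochondrial protein that in neurons links the organelle to transport along microtubules. It was at 4.88, 5.30, 5.64, 4.18, 3.44, 6.34 and 6.27 in AML replicates 1 to 7, against 6.52, 6.63 and 6.86 (lowest, median and highest) in fresh medium. No AML array overlapped the fresh-medium arrays, although replicates 6 and 7 came close to them. *Mgarp* fell by 1.52 (SE 0.29, adjusted p = 0.00573), or 2.87-fold.

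*Higd1a* and *Ak4* complete the mitochondrial group. *Higd1a*, a hypoxia-induced protein of the inner mitochondrial membrane, had log2 levels of 7.70, 7.91 and 8.51 (lowest, median and highest) in AML-conditioned medium, against 8.42, 8.65 and 8.75 in fresh medium. Only AML replicate 6 reached the fresh-medium range. *Higd1a* fell by 0.61 (SE 0.13, adjusted p = 0.0126), or 1.53-fold, and the difference was -0.51 (adjusted p = 0.109) without AML replicates 4 and 5. *Ak4*, an adenylate kinase of the mitochondrial matrix, was at 6.06, 6.66, 6.52, 5.59, 5.22, 8.03 and 7.81 in AML replicates 1 to 7, against 7.64, 8.07 and 8.50 (lowest, median and highest) in fresh medium. Replicates 6 and 7 were inside the fresh-medium range and replicates 1 to 5 about 1 log2 unit or more below its lowest array. *Ak4* fell by 1.53 (SE 0.33, adjusted p = 0.0138), and without AML replicates 4 and 5 the difference was -1.07 (adjusted p = 0.112).

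Outside the mitochondrion, *P4ha1* and *Ankrd37* fell and *Vegfa* did not pass. *P4ha1* encodes the catalytic subunit of collagen prolyl 4-hydroxylase, and had log2 levels of 8.47, 8.97 and 9.48 (lowest, median and highest) in AML-conditioned medium, against 9.39, 9.53 and 9.76 in fresh medium. AML replicates 6 and 7 overlapped fresh medium and the other 5 did not. *P4ha1* fell by 0.53 (SE 0.12, adjusted p = 0.0198), the smallest of the 8 falls, and did not pass without AML replicate 4, without AML replicate 5, or without both, when it was at -0.36 (adjusted p = 0.141). *Ankrd37*, an ankyrin repeat protein whose gene responds strongly to HIF1, was at 6.84, 6.75, 7.08, 6.33, 6.20, 7.78 and 7.83 in AML replicates 1 to 7, against 7.98, 8.20 and 8.54 (lowest, median and highest) in fresh medium. All 7 AML arrays were below the fresh-medium arrays, replicates 6 and 7 narrowly. *Ankrd37* fell by 1.23 (SE 0.20, adjusted p = 0.00202), or 2.35-fold. Its neighbour *Ufsp2*, whose annotated span overlaps it by 51 bases on the opposite strand, differed by -0.45 (SE 0.12, adjusted p = 0.0474, and -0.29 with adjusted p = 0.337 without AML replicates 4 and 5). The genes next to the 10 on either side, 20 in all, had differences of -0.45 to 0.24 with a median of -0.04, and 1 of them, *Ufsp2*, passed.

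*Vegfa*, which encodes an angiogenic growth factor and is a classical HIF1 target, passed in none of the 3 comparisons, the smallest adjusted p by limma being 0.965. It had log2 levels of 7.32, 7.57, 7.16, 7.36, 7.37, 7.50 and 7.62 in AML replicates 1 to 7, 6.94, 7.07, 6.64, 7.64, 7.74, 7.93 and 7.80 in DC replicates 1 to 7, and 7.02, 7.18, 7.34, 7.45, 7.37, 7.70 and 7.66 in fresh replicates 1 to 7. AML replicates 4 and 5, the lowest of all arrays for 8 of the 10 genes, were unremarkable here, and the 3 media overlapped throughout. The AML arrays spanned 0.46, against 3.24 for *Egln3*, 2.89 for *Mgarp* and 2.81 for *Ak4*. The difference from fresh medium was 0.03 (SE 0.16, 95% interval -0.30 to 0.36, adjusted p = 0.965), an interval that does not include the fall of any of the other 8 targets.

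The DC arrays divided by replicate number. *Vegfa* was at 6.64 to 7.07 in DC replicates 1 to 3 and at 7.64 to 7.93 in DC replicates 4 to 7, without overlap. This division of the replicates was taken from earlier results of these data and is no label of the study. For 8 of the 10 genes (*Egln1*, *Egln3*, *Ak4*, *Ankrd37*, *Bnip3*, *P4ha1*, *Vegfa* and *Higd1a*) DC replicates 1 to 3 were all below DC replicates 4 to 7, against 13.6% of all genes. In AML arrays that held for 0 of the 10 (4.64% of all genes), and in fresh-medium arrays for 2, *P4ha1* and *Vegfa* (7.74% of all genes). AML-conditioned minus DC-conditioned *Vegfa* was 0.47 (adjusted p = 0.156) in replicates 1 to 3 and -0.32 (adjusted p = 0.155) in replicates 4 to 7. The change between the sets was -0.79 (SE 0.17) and did not pass by limma after adjustment over all genes (adjusted p = 0.273). Because the division came from these same data, this test cannot decide whether the sets differ.

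**Figure D3:**
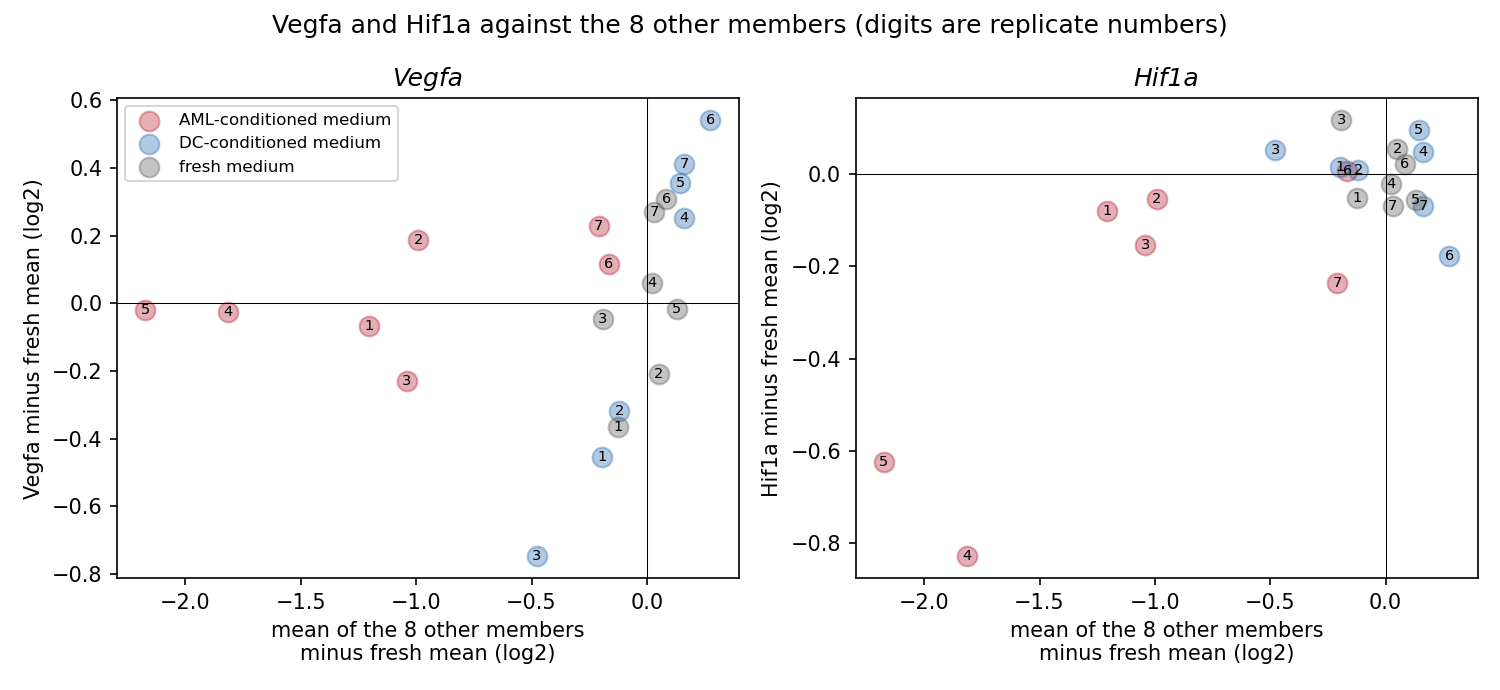
*Vegfa* (left) and *Hif1a* (right) on each array against the mean of the 8 other genes, all relative to the mean of the fresh-medium arrays on the log2 scale; digits are replicate numbers. *Vegfa* stays near 0 on AML arrays 1 to 5, where the mean of the 8 genes is between -2.17 and -0.99, and *Hif1a* is well below 0 on AML replicates 4 and 5.

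The array-by-array comparison showed how far the genes moved together. The mean of the 8 genes other than *Hif1a* and *Vegfa*, relative to fresh medium, was -1.21, -0.99, -1.04, -1.82, -2.17, -0.17 and -0.21 on AML arrays 1 to 7. It was between -0.48 and 0.28 on DC arrays and between -0.19 and 0.13 on fresh-medium arrays. AML arrays 1 to 5 thus lay below all 14 other arrays, and AML arrays 6 and 7 lay among the DC arrays. AML arrays 4 and 5 were the lowest of all 21 arrays for 8 of the 10 genes, *Hif1a* among them, and AML arrays 6 and 7 the highest AML arrays for 8 of the 10. AML array 6 lay within the fresh-medium range for 8 of the 10 genes and AML array 7 for 5.

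Correlations across arrays, which share the normalization, the medium and the division between replicates 1 to 3 and 4 to 7, described the same pattern, with *Vegfa*, *Hif1a* and *Mgarp* standing apart. With each group's mean removed, the correlation of a target with the mean of the other targets was 0.82 to 0.96 over 21 arrays for the 8 genes that fell. It was 0.44 for *Vegfa* over 21 arrays but 0.89 over the 14 arrays of DC-conditioned and fresh medium. For *Hif1a* it was 0.58 over 21 arrays and -0.44 over those 14. For *Mgarp* it was 0.86 over 21 and 0.28 over those 14. Over those 14 arrays the correlation was thus negative for *Hif1a* and weak for *Mgarp*, and neither was tested against 0. *Hif1a* varied little there, with an SD of 0.09 in DC-conditioned and 0.07 in fresh medium. The division of replicates stays in these correlations when group means are removed, and its part in them was not tested.

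**Figure D4:**
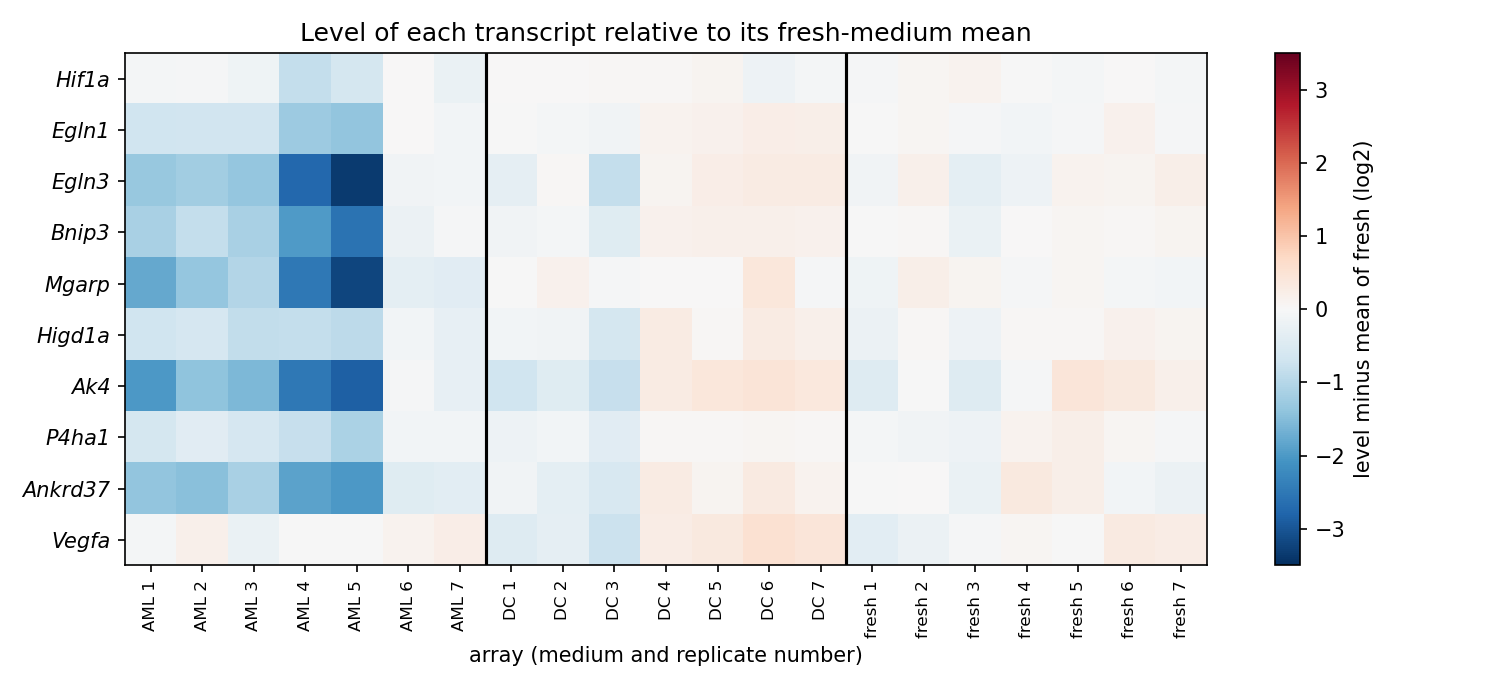
Level of the 10 genes (rows) on the 21 arrays (columns, grouped as AML-conditioned, DC-conditioned and fresh medium) minus the mean of the fresh-medium arrays, on the log2 scale. The deepest blue lies in AML replicates 4 and 5, replicates 6 and 7 are pale, and DC replicate 3 is the bluest column outside the AML group, with a mean of -0.48 over the 8 genes that fell.

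Medium conditioned by dendritic cells served as a conditioned medium from cells that are not leukaemic. Against fresh medium 0 of the 10 genes passed in the limma test and 0 had an unadjusted p under 0.05, beside 0% of all genes called and 6.41% at an unadjusted p under 0.05. The exact permutation test called 0 genes, as it did in the AML comparisons, so its count does not set this comparison apart. The differences ran from -0.07 for *P4ha1* to 0.07 for *Egln1*. The 95% intervals were -0.21 to 0.21 for *Hif1a*, -0.32 to 0.34 for *Vegfa* and, where the spread was wide, -0.76 to 0.68 for *Egln3*. The fit takes 1 spread per gene from all 3 media, so the wide spread of the AML arrays widens these intervals and the narrow spread of the other arrays narrows those of the AML comparisons.

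Set against DC-conditioned medium, AML-conditioned medium gave falls in the same 8 genes, and again 0 rises (2.39% of all genes passed, 1.26% as lower and 1.13% as higher). This comparison and that with fresh medium share the AML arrays. The median difference of the 10 genes was -0.95, against 0.01 over all genes. *Mgarp* fell by 1.59 (SE 0.29, adjusted p = 0.00470), with all 7 AML arrays (3.44, 5.30 and 6.34, lowest, median and highest) below the DC arrays (6.62, 6.68 and 7.06). *Ankrd37* fell by 1.20 (SE 0.20, adjusted p = 0.00272), at 6.20, 6.84 and 7.83 in AML arrays and 7.64, 8.30 and 8.52 in DC arrays, with AML replicates 6 and 7 inside the DC range. The differences of 4 others that fell were -0.75 for *Egln1* (adjusted p = 0.00908), -1.42 for *Egln3* (adjusted p = 0.0260), -1.14 for *Bnip3* (adjusted p = 0.0167) and -1.46 for *Ak4* (adjusted p = 0.0177). *Higd1a* fell by 0.61 (adjusted p = 0.0132), and *P4ha1*, which fell by 0.46 (adjusted p = 0.0427), was the least secure and lost its call without any 1 of 14 arrays. *Hif1a* differed by -0.28 (adjusted p = 0.167) and *Vegfa* by 0.02 (95% interval -0.31 to 0.35, adjusted p = 0.974). All AML arrays were below all DC arrays for 1 gene, against 0.379% of all genes, and at least 5 were for 6 genes, against 4.07%. Without AML replicates 4 and 5, 3 genes passed (0.472% of all genes), *Egln1*, *Ankrd37* and *Mgarp*, and without replicate 4 alone 5 passed.

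Other genes of the pathway were lower in part, by role. Of 58 measured genes in 7 lists outside glycolysis that are not among the 10, 14 fell after AML-conditioned against fresh medium, 0 rose and 44 did not pass, with a median of -0.14. Over all genes 1.48% fell, with a median of -0.01. These lists, and the glycolytic list below, were chosen with earlier results of these data known, so the contrast with all genes is no independent support. Without AML replicates 4 and 5, 3 of the 58 fell, against 0.569% of all genes called. Without AML replicate 4 alone, or replicate 5 alone, 6 fell. None of the 4 other HIF subunits passed by limma: *Epas1*, the alpha subunit of HIF2, differed by -0.50 (adjusted p = 0.0550), *Hif3a* by -0.28 (adjusted p = 0.0735), *Arnt* by -0.17 (adjusted p = 0.148) and *Arnt2* by 0.15 (adjusted p = 0.342). Mean log2 levels in AML-conditioned and fresh medium were 4.90 and 5.40 for *Epas1*, 5.02 and 5.31 for *Hif3a*, and 5.06 and 4.91 for *Arnt2*. These lie near the median level of the arrays, and detection was not assessed. *Arnt* was at 8.31 and 8.49. Without AML replicates 6 and 7 *Epas1* passed, at -0.65 (adjusted p = 0.00558), and without AML replicates 4 and 5 it did not, at -0.33 (adjusted p = 0.346). Both exclusions were chosen with earlier results of these data known, so neither is an independent test. Of 14 further sensors and regulators of HIF stability or activity, such as *Vhl* and *Hif1an*, 0 passed, with a median of -0.03. Among them *Egln2*, the EGLN gene that hypoxia does not typically induce, differed by -0.07 (SE 0.06, adjusted p = 0.669), unlike *Egln1* and *Egln3*. Of 7 other secreted factors 0 passed, with a median of -0.07.

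Falls lay in the target lists. Of 6 other mitochondrial targets 2 fell, *Bnip3l*, the paralogue of *Bnip3* that also acts in mitophagy, with a difference of -0.77 (SE 0.16, adjusted p = 0.0121) with all 7 AML arrays below fresh medium, and *Fam162a* with -0.74 (SE 0.16, adjusted p = 0.0126). Of 6 collagen and protein folding targets 2 fell, the lysyl hydroxylase *Plod2* with a difference of -1.25 (SE 0.25, adjusted p = 0.00654) and the endoplasmic reticulum oxidase *Ero1a* with -0.89 (SE 0.22, adjusted p = 0.0249). *Loxl2* of that list is not analysed here. Of 13 nuclear and signalling targets 7 fell, among them the MYC antagonist *Mxi1* with a difference of -0.97 (SE 0.19, adjusted p = 0.00573), *Ndrg1* with -1.39 (SE 0.28, adjusted p = 0.00795), *Zfp395* with -0.36 (SE 0.08, adjusted p = 0.00983) and *Ddit4*, an inhibitor of mTORC1, with -0.60 (SE 0.14, adjusted p = 0.0212). The other 3, *Rora*, *Jmjd6* and *Kdm4b*, had differences of -0.62 to -0.40. Of 8 genes of glycogen, pH and iron 3 fell, the haem oxygenase *Hmox1* with a difference of -0.71 (adjusted p = 0.0223), the glycogen branching enzyme *Gbe1* with -0.64 (adjusted p = 0.0369) and the glycogen synthase *Gys1* with -0.40 (adjusted p = 0.0456). Without AML replicates 4 and 5 the genes that passed were *Bnip3l* at -0.46 (adjusted p = 0.0108), *Mxi1* at -0.64 (adjusted p = 0.0162) and *Ndrg1* at -0.92 (adjusted p = 0.0452). Of 18 measured glycolytic HIF targets 12 fell and 0 rose, against 1.48% of all genes lower and 1.3% higher. *Gpi1* and *Eno1* of that list are not analysed here, and its count without AML replicates 4 and 5 is not given. Against DC-conditioned medium 11 of the 58 genes fell and 0 rose, against 1.26% of all genes lower and 1.13% higher. In that comparison none passed by limma without AML replicates 4 and 5, and 21 had an unadjusted p under 0.05 (9.15% of all genes). DC-conditioned against fresh medium gave 0 of 58, against 0% of all genes.

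**Figure D5:**
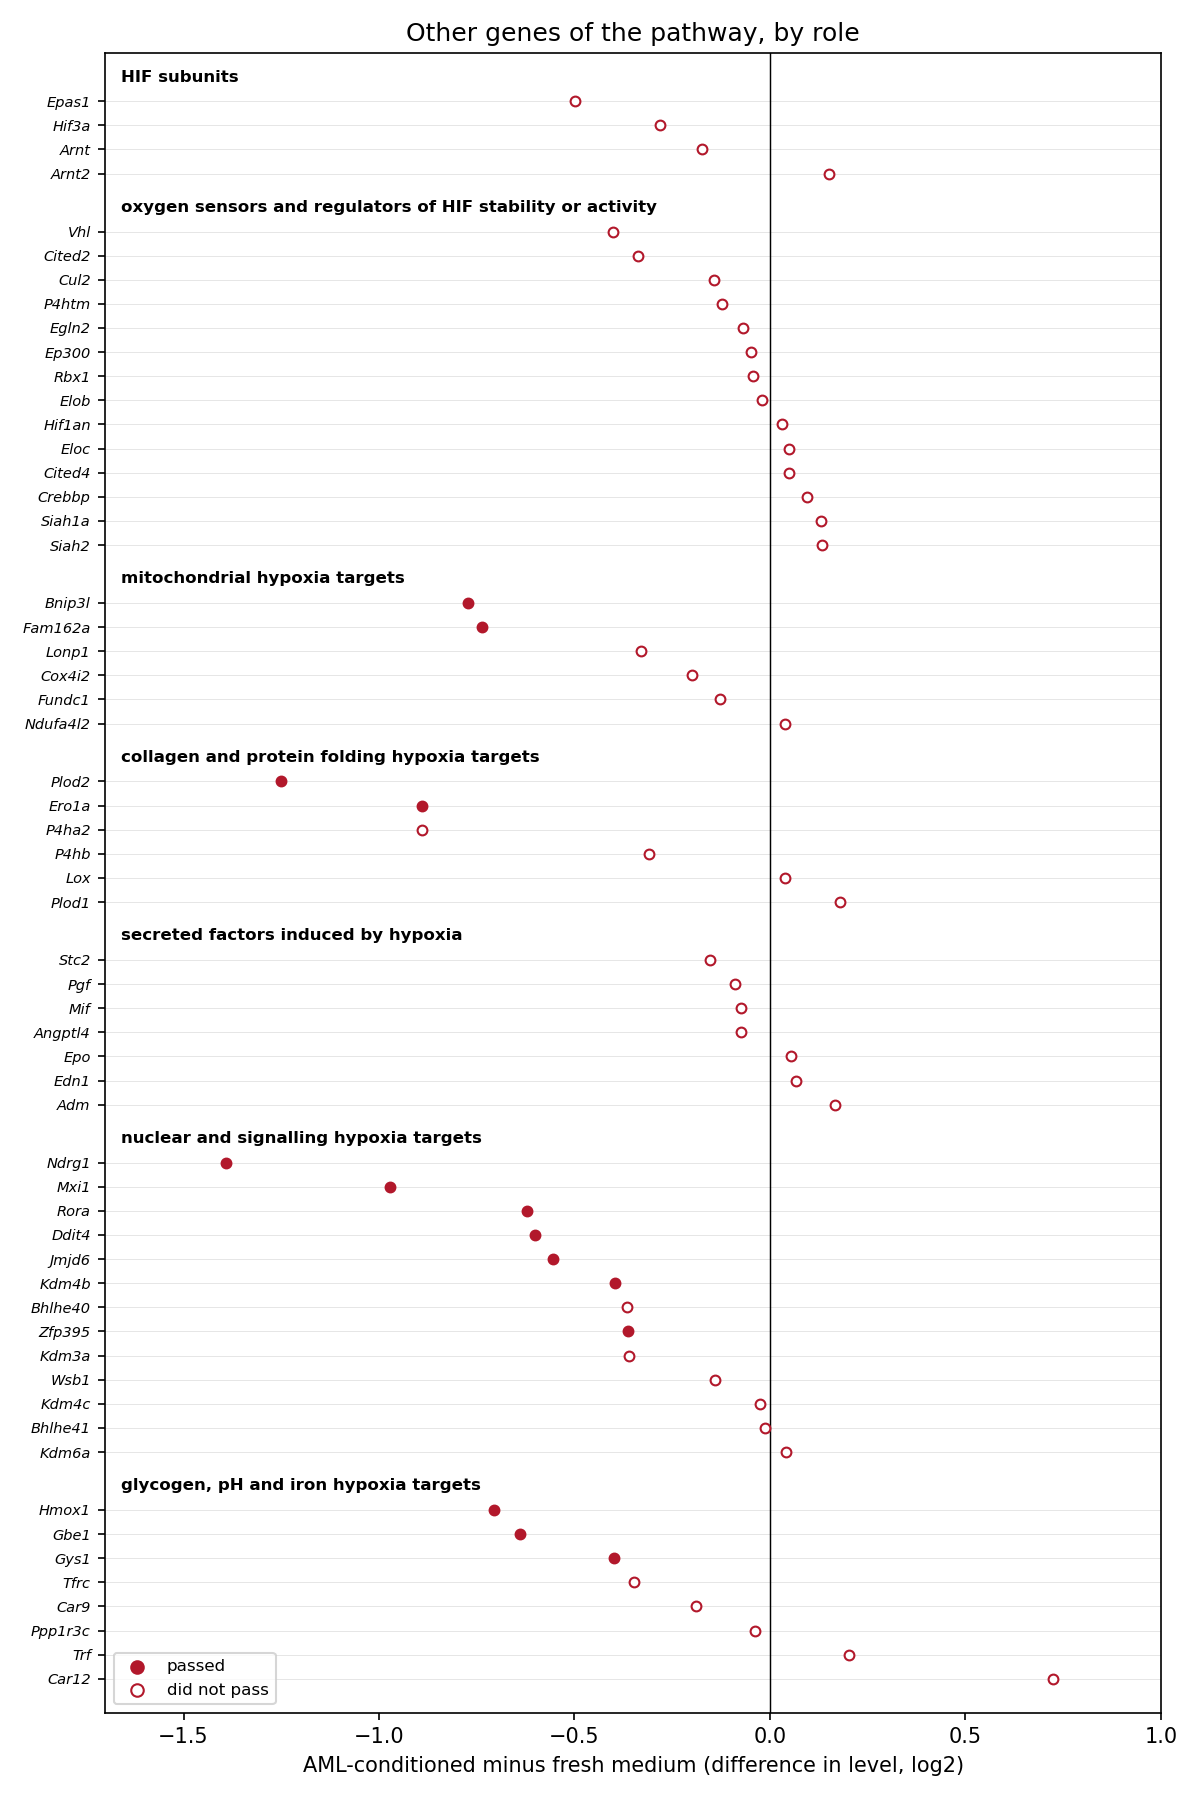
Difference in log2 level between AML-conditioned and fresh medium for the 58 other measured pathway genes, grouped by role. Filled points passed at an adjusted p under 0.05. Filled points lie only in the 4 lists of target genes other than secreted factors, 14 in all and all to the left of 0.

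The genes that varied most like the mean of the 9 genes other than *Hif1a*, with each group's mean removed, were taken by rank. The 8 with the highest Pearson correlation over 21 arrays, which share normalization and culture, were the glucose transporter *Slc2a1* (r = 0.99), *Pgm1*, *Mxi1*, *Ndrg1*, *Slc16a3* (each 0.97), *Prr5*, *Fads2* and *Slc2a3* (each 0.96). Their correlations over the 14 arrays without AML-conditioned medium were 0.83 to 0.96. Of these, *Prr5* at -0.72 (adjusted p = 0.0596) and *Fads2* at -0.47 (adjusted p = 0.529) did not pass between AML-conditioned and fresh medium. The genes most like *Hif1a* were others, *Usp25* (r = 0.92), *Cmpk2*, *Arsb* and *Scpep1* (each 0.91). Over the 14 arrays without AML-conditioned medium their correlations were 0.89, 0.56, 0.66 and 0.32. By limma 0 of these 4 passed between AML-conditioned and fresh medium.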

How the data were processed

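RNA of CD8+ T cells, re-isolated by magnetic separation after culture, was hybridised to 1-colour Affymetrix arrays, 1 array per sample. The deposited values are log2 levels that the authors obtained by RMA (background correction, quantile normalization and summary over probes) with the oligo software, per the submitters' processing notes. Versions, genome build and signal over background are not given in the sources used here, and detection was not assessed.

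The platform's annotation gave 19572 of 22203 transcript clusters 1 gene symbol, 0 several and 2631 none. Keeping the cluster of highest mean for the 55 symbols with more than 1 left 19505 genes, with no filter on level. Media were compared with limma 3.58.1 in R 4.3.3 (lmFit and eBayes, 1 fit of all 21 arrays, two-sided), with Benjamini-Hochberg adjustment over all genes and a threshold of 0.05. The code was tested on simulated data. Exact permutation tests used all 3432 splits of 7 against 7 arrays, with a smallest p of 0.000583. A total of 37 alternatives were run, 21 of them leaving out 1 array each. The pathway lists under every alternative and the test between replicate sets were added after seeing the data. Replicate numbers were not taken as pairs, since the labels name no shared mouse or day and 13, not all, of 21 pairs with the same number correlated above 0.1. That rule is no test against chance, and fits with the replicate number as a block are given among the alternatives. The labels do not say whether replicates were separate mice, so p-values measure the spread between these samples. The number of arrays limits the precision.

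The 10 genes, the pathway and marker lists, the sets of replicates 1 to 3 and 4 to 7 and the arrays left out in pairs were chosen with earlier results of these data known. Named pathway genes were the HIF subunits, *Egln2* and, within each list, up to 4 genes that passed, by adjusted p; genes named beyond that were chosen after their values were seen.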

Additional observations from a re-analysis of the deposited data

Results flagged for a closer look

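Among the 30 sets of 7 arrays (10 genes in 3 media), 2 held an array far from the other 6 relative to the range of the set, where chance gives about 1 in 20. *Mgarp* stood at 7.06 in DC replicate 6, with the nearest DC array at 6.81. *Bnip3* stood at 9.70 in fresh replicate 3, with the nearest fresh-medium array at 9.92. Both lie outside the AML-conditioned group, whose wide spread was not picked out by this screen.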

How the results depend on the processing

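The 8 genes called lower after AML-conditioned medium kept their direction under all 37 alternatives against either other medium, and 0 called results changed sign. Differences that did not pass did change sign, *Vegfa* between -0.08 and 0.17 against fresh and between -0.32 and 0.47 against DC-conditioned medium, and 9 of the 10 genes in DC-conditioned against fresh medium. Against fresh medium 4 genes passed with only these 2 groups in the fit, 2 without AML replicates 4 and 5, 0 in replicates 4 to 7 alone (9 at an unadjusted p under 0.05) and 0 by the exact permutation test (9 unadjusted, smallest adjusted p over all genes 0.0733). Against DC-conditioned medium the same settings gave 4, 3, 0 (10 unadjusted) and 0 (9 unadjusted). In replicates 1 to 3 alone 6 genes passed against either medium. Leaving out 1 array gave 6 to 8 against fresh and 5 to 8 against DC-conditioned medium, the 5 without AML replicate 4. Trend and robust estimation lost *Egln3* against both media. DC-conditioned against fresh medium gave 0 of the 10 genes under every alternative.

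Over all genes, the AML-conditioned comparisons with fresh and DC-conditioned medium called 541 and 466, 246 and 249 with 2 groups in the fit, 111 and 92 without AML replicates 4 and 5, 1085 and 1058 without AML replicates 6 and 7, 32 and 43 in replicates 4 to 7 alone (3140 and 3152 unadjusted), 1026 and 797 with the replicate sets as a block, and 0 and 0 by permutation (2866 and 2814 unadjusted). Replicates 1 to 3 alone gave 374 and 318. Leaving out 1 array gave 218 to 776 and 220 to 784. DC-conditioned against fresh medium called 0 genes, and 1 or 2 under some alternatives. Centring each array moved the median of all genes by at most 0.04. Of the 58 other pathway genes 14 fell against fresh medium, 6 to 19 without 1 array, 10 with 2 groups, 0 in replicates 4 to 7 alone and 0 by permutation (26 unadjusted). In replicates 1 to 3 alone 11 of the 58 fell and 1 rose.

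With the replicate number as a block 8 of the 10 genes passed against either medium, 1012 and 784 genes passed over all, and 21 of the 58 pathway genes fell and 1 rose, and *Epas1* passed at -0.50 (adjusted p = 0.0121). With the number as a random block 802 and 657 genes passed. Same-numbered samples correlated at -0.11 to 0.36. In 10 of the 21 pairs the array correlated best with its own number, out of 7 candidate numbers, a hint of pairing from the data and not the design. The causes of these changes were not tested. Low levels lie near the floor of RMA values, where differences are compressed.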
